A study of Mus musculus with 6 samples.

Results

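The genes described here are members of the Bcl2 family, the proteins that decide at the mitochondrion whether a cell lives or dies, with Bcl2l11, which encodes BIM, at their head. The 10 genes were listed by name, and Bcl2l11 was chosen from its lower value with doxycycline in these same arrays, so that the doxycycline values below are a description. Of the 10 genes, 9 had at least 1 probe set named for them alone, out of 18193 genes named in this way. No probe set was named for Bax in the annotation used, and Bax was not analysed here. The 9 genes were read by 31 probe sets, of which 26 passed the filter on low values (a mean over the 6 arrays of at least 60.5 signal units) and were tested.

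RNA came from day 6 embryoid bodies, balls of mouse embryonic stem cells that form many cell types at once as they differentiate, made from the Hoxb4i line. In the doxycycline group the HOXB4 cassette of this line was induced with 2 µg/ml doxycycline for 48 hours from day 4, and in the other group it was not induced. Both groups carry the cassette, and doxycycline on cells without it is not among the 6 samples, so that HOXB4 and doxycycline cannot be told apart. Each group has 3 arrays (Affymetrix Mouse Genome 430 2.0), lettered A, B and C for the 3 experiments, which the series describes as biological replicates. Embryoid bodies are mixtures, and in such bulk RNA fewer cells of a type and less RNA per cell cannot be told apart.

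Proteins of this family act in 3 roles. BH3-only proteins such as BIM, BMF, BAD and BID sense stress or loss of survival signals. They bind the anti-death members BCL2, BCL-XL (the product of Bcl2l1) and MCL1, and BIM and BID can also act directly on the effectors. The effectors BAX and BAK, and the less well understood BOK, open the outer mitochondrial membrane, which releases cytochrome c and starts the caspases. In blood cells BIM is known as the main brake on survival after cytokine withdrawal, and FoxO transcription factors are known to switch its gene on.

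The windows before the start sites of Bcl2l11 and Bcl2 are shown because Bcl2l11 is the gene the choice rests on and Bcl2 was the member whose brightest probe set passed the F test between the experiments. RefSeq gives 2 start sites for Bcl2l11 and 1 for Bcl2 (build GRCm38.p6), and each window runs from 250 bases before the start to 50 after it, 5′ to 3′ along the gene. Capitals mark the FoxO core GTAAACA, searched on both strands.
Bcl2l11, upstream start, chr2:128125788-128126087, plus strand: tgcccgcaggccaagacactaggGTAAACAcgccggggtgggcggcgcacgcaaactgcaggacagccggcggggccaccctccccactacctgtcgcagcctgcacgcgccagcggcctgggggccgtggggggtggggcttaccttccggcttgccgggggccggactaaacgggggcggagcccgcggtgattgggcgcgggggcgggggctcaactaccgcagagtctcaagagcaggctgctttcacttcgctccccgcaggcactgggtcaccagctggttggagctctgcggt
Bcl2l11, downstream start, chr2:128127325-128127624, plus strand: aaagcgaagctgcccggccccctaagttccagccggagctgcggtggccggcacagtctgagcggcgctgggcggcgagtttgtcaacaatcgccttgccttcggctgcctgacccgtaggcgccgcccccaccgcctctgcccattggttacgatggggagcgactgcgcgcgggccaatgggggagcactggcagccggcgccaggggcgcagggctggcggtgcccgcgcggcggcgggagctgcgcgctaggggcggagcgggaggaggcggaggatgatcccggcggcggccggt
Bcl2, chr1:106714241-106714540, minus strand: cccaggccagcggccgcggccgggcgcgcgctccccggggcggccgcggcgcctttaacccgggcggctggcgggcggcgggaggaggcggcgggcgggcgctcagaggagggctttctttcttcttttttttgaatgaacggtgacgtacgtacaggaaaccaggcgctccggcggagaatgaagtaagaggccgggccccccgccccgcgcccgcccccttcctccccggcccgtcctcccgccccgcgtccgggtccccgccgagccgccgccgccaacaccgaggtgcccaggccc

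The FoxO core occurred 1 time in these windows, in the upstream one of Bcl2l11, with its first base at -227 from the start site. Among the 16 windows of all 10 genes this was the only one that held it, and among all 32851 windows of the same length 3.65% did. The homeodomain core TAAT, whose letters are no part of the FoxO core, was searched on both strands and was in none of the 3 windows shown. It was in 8 of the 16 windows, from Bad, Bax, Bcl2l1, Bid and Bmf (not in every window of Bad and Bcl2l1), against 58.0% of all windows. The windows of Bcl2l11 held 71.0% and 74.0% G and C and that of Bcl2 76.0%, where the median window held 52.7%. A match of letters is a description and not a site.

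The arrays were alike in median signal (92.0 to 108.6), but array A without doxycycline had the highest ratio of 3′ to 5′ control signal. The ratio was 2.88 for Actb, against 1.26 to 1.48 on the other 5 arrays, and 1.08 for Gapdh, against 0.834 to 0.903, a smaller gap. Per the labels, the submitters had checked RNA integrity on a Bioanalyzer. Of the 6 values, its own was the top or bottom one on 16 of the 26 tested member probe sets (61.5%) and on 53.7% of all tested probe sets. The induced gene, Hoxb4, had signals of 116.4, 129.5 and 175.5 with doxycycline in A, B and C on probe set 1451761_at, against 46.5, 119.8 and 113.5 without. On 1460379_at they were 136.3, 261.4 and 150.7 with doxycycline, against 78.2, 253.0 and 27.6 without. The induced array was the higher one in each experiment on both probe sets, and the groups overlapped; whether these probe sets read the cassette is not given in the sources used here.

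Bcl2l11 was read by 5 probe sets that differed among themselves in direction. On the brightest, 1456005_a_at, the signal was 2495, 2636 and 2078 with doxycycline in A, B and C, against 6407, 4070 and 3327 without. All 3 induced arrays lay below all 3 uninduced arrays. The log2 difference, doxycycline minus no doxycycline, on log2(signal + 18.8) was -1.35, -0.62 and -0.67 in A, B and C, with a mean of -0.88 ± 0.41 (SD, n = 3). The mean of B and C alone, without the experiment that holds the array of high 3′ to 5′ ratio, was -0.65.

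The other 4 probe sets of Bcl2l11 had smaller or opposite differences. On 1435448_at the signal was 1297, 1342 and 1283 with doxycycline in A, B and C, against 1494.5, 1351 and 1394 without. The groups were again apart, but narrowly, with 1342 the highest value with doxycycline and 1351 the lowest without. The log2 difference was -0.20, -0.0096 and -0.12 in A, B and C, with a mean of -0.11 ± 0.096 (SD, n = 3). On 1435449_at the signal was 572.9, 402 and 554 with doxycycline, against 473, 450.0 and 467 without. The induced arrays of A and C were the highest of the 6 and that of B the lowest.

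On 1456006_at the signal was 327, 365.5 and 370.4 with doxycycline in A, B and C, against 584.5, 345 and 281 without. The uninduced array of A was the highest and that of C the lowest, so that the log2 difference was -0.80, 0.08 and 0.38 in A, B and C. On 1426334_a_at the signal was 246.5, 229 and 305.5 with doxycycline, against 79.0, 242 and 198 without. Here the uninduced array of A was the lowest, and the log2 difference was 1.44, -0.075 and 0.58 by experiment. The uninduced array of A was therefore the highest on 3 and the lowest on 1 of the 5 probe sets, while its 3′ to 5′ ratio was the highest of the 6 arrays; the part of this ratio in these values was not tested.

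**Figure D1:**
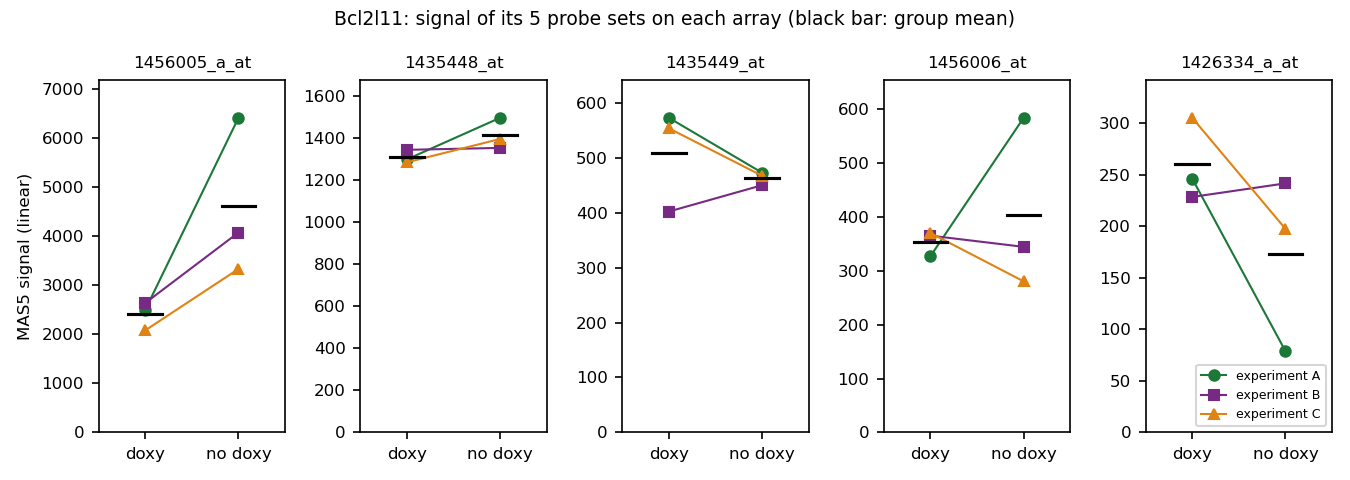
MAS5 signal (linear axis from 0) of the 5 Bcl2l11 probe sets on each array, doxycycline on the left and no doxycycline on the right of each panel; lines join the arrays of an experiment and black bars are group means (n = 3). Every line of 1456005_a_at and 1435448_at lies lower at doxycycline, and the uninduced array of A is the highest on 1456006_at and the lowest on 1426334_a_at.

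Marker sums of 3 cell types were also lower with doxycycline in 3 of 3 experiments, as 1456005_a_at was. The blood, endothelial and endoderm sums differed in direction between the experiments. The 5 cardiac markers summed to 882, 1665 and 493 with doxycycline in A, B and C, against 1180.3, 2838 and 568.5 without. The 5 neural markers summed to 919, 123.1 and 2056 with doxycycline, against 1762, 276.0 and 3065.5 without. The 5 pluripotency markers summed to 4083, 1178 and 9302.5 with doxycycline, against 5921, 1559 and 9351 without. The groups overlapped in all 3 sums, the pluripotency sums of C were nearly equal, and limma called none of these markers between the groups. Taken 1 by 1, 2 of the cardiac, 3 of the neural and 2 of the pluripotency markers (Pou5f1 and Sox2) were lower in 3 of 3 experiments. The share over all tested probe sets was 13.2%. Sox2 made up most of the pluripotency sum in A and C. The part of these cell types in the Bcl2l11 values was not tested.

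Over the 6 arrays, which share experiments and scaling, the log2 signal of 1456005_a_at had a Pearson correlation of 0.93 with 1435448_at and 0.65 with 1456006_at. It was -0.37 with 1435449_at and -0.89 with 1426334_a_at. The genes whose brightest probe set followed 1456005_a_at most closely, of 12451 compared over the 6 arrays, were Fgf11 (0.988), Zfp945 (0.987), Yod1 (0.981), Cct4 (0.981) and Gm15506 (0.980). Fgf11 encodes a fibroblast growth factor that stays inside the cell, Yod1 a deubiquitinase and Cct4 a subunit of the chaperonin that folds actin and tubulin. Fgf11 was dim, with signals of 61.1, 60.8 and 41.6 with doxycycline in A, B and C, against 152.5, 89.8 and 84.1 without. Its signals with doxycycline lay near or below the filter value of 60.5. Each of the named genes had its highest signal on the uninduced array of A, as 1456005_a_at did. That array had the highest 3′ to 5′ ratio, and its part in these correlations was not tested. A correlation above 0.9 was found for 83 of the 12451 genes. With only 6 arrays this ranking is a description, and whether these genes follow Bcl2l11 was not tested.

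Across the whole table, limma called 0 of 27022 probe sets between doxycycline and no doxycycline at an adjusted p under 0.05 (0%), and so none of the 26 of the family. This main fit did not pair the arrays of an experiment, and with the experiment as a replicate block the count was 0 too. At an unadjusted p under 0.05 the main fit picked 1 of the 26, the Bcl2l11 probe set that led to the choice, against 0.511% of all probe sets. With the experiment as a replicate block 2 of the 26 were picked, that probe set and 1420887_a_at of Bcl2l1, against 3.94% of all. Groups apart with doxycycline lower were seen on 2 of the 26, both of Bcl2l11, against 2.11% of all, and groups apart with doxycycline higher on 0, against 2.24% (4.34% in either direction). The direction of these counts was used to choose Bcl2l11, and nothing is read from them. The difference was negative in 3 of 3 experiments on 5 of the 26 (13.2% of all probe sets) and positive in 3 of 3 on 4 (12.8% of all). The median log2 difference over the 26 was -0.072, and 0.0091 over all tested probe sets.

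Bmf encodes a BH3-only protein that is held at the cytoskeleton in healthy cells. On its brightest probe set, 1454880_s_at, the signal was 1145, 2017 and 797 with doxycycline in A, B and C, against 1700.3, 1504 and 872 without. The groups overlapped, and both arrays of C were the lowest. Its second tested probe set, 1422995_at, was higher with doxycycline in 3 of 3 experiments, with a mean log2 difference of 0.67 ± 0.50 (SD, n = 3), beside 0.39 over B and C alone.

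Bad encodes the BH3-only protein that growth factor signals hold inactive by phosphorylation. On 1416583_at the signal was 434, 686 and 491 with doxycycline in A, B and C, against 244, 562 and 483 without, and the uninduced array of A was the lowest of the 6. The log2 difference was 0.79, 0.28 and 0.02 in A, B and C, while on the other probe set of Bad, 1416582_a_at, it was -0.53, 0.46 and -0.24.

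Bid encodes the BH3-only protein that caspase-8 cuts to carry death receptor signals to the mitochondrion. On 1417045_at the signal was 657.5, 412.1 and 793 with doxycycline in A, B and C, against 514, 411.4 and 723 without. Both arrays of C were the highest and both of B the lowest, with a doxycycline difference of 0.16 ± 0.17 (SD, n = 3) on the log2 scale. The mean difference was 0.41 on 1448560_at and -0.55 on 1447873_x_at, a dim probe set with a mean signal of 65.5.

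Of the effectors, Bak1 encodes BAK, which sits in the outer mitochondrial membrane. On 1418991_at the signal was 378, 409 and 445 with doxycycline in A, B and C, against 735, 318 and 375 without. Apart from the uninduced array of A the values spanned 318 to 445, and the log2 difference was -0.92, 0.345 and 0.24 by experiment.

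Bok encodes a related protein whose part in cell death is less settled. On 1417040_a_at its signal was 233, 259 and 488.2 with doxycycline in A, B and C, against 344, 199.9 and 488.9 without. The 2 arrays of C were the highest and nearly equal, and the groups overlapped, with a mean log2 difference of -0.061 ± 0.44 (SD, n = 3).

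Bcl2 encodes the founding anti-death protein of the family. On 1457687_at the signal was 214.5, 371 and 586 with doxycycline in A, B and C, against 154, 178 and 593 without. The arrays of C were the highest in both groups, and the groups overlapped. The log2 difference was 0.43, 0.99 and -0.016 by experiment. The other tested probe sets, 1437122_at and 1422938_at, had mean differences of -0.16 ± 0.24 and -0.60 ± 0.60 (SD, n = 3 each).

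Bcl2l1 encodes BCL-XL, which keeps maturing red cells alive. On 1420888_at the signal was 719, 584 and 833 with doxycycline in A, B and C, against 977, 438 and 581 without, and the uninduced array of A was the highest. On 1420887_a_at it was 215.0, 334.5 and 692 with doxycycline, against 110.9, 213 and 433 without. Within each experiment the induced array was higher on that probe set, by 0.85, 0.61 and 0.65 on the log2 scale, with a mean of 0.70 ± 0.13 (SD, n = 3), while the groups overlapped because C was high in both. On 1426191_a_at the difference was 1.13, -0.68 and 0.20 by experiment.

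Mcl1 encodes a short-lived anti-death protein that blood stem cells and early embryos need. On 1448503_at the signal was 5191, 6498 and 3930.1 with doxycycline in A, B and C, against 6074.5, 4858 and 4071 without. The groups overlapped, and both arrays of C were the lowest. The 6 probe sets of Mcl1 had mean log2 differences from -0.36 to 0.45, and the uninduced array of A was the highest on 3 of them and the lowest on 1.

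By role, the 12 tested BH3-only probe sets split into 6 with a higher and 6 with a lower mean with doxycycline, with a median log2 difference of 0.013. The 12 anti-death probe sets also split into 6 and 6, with a median of -0.0175, and both effector probe sets were lower, at -0.11 and -0.061. In experiment A alone the median over the 26 was -0.29, against 0.052 in B and 0.010 in C, while over all tested probe sets it was -0.045, 0.0080 and 0.018. With 1 probe set per gene, the brightest, the 4 BH3-only genes split into 2 with a higher and 2 with a lower mean (median 0.034), both effectors were lower (median -0.088), and the 3 anti-death genes were higher (median 0.16). In A, B and C the medians of these 3 anti-death genes were -0.23, 0.42 and -0.016. Those of the effectors were -0.73, 0.35 and 0.12, so that they were lower in A alone. The 5 probe sets below the filter were 2 of Bcl2 and 1 each of Bmf, Bak1 and Bcl2l1. Of these, 1458325_x_at of Bmf had signals of 77.8, 52.7 and 75.1 with doxycycline in A, B and C, against 26.9, 50.2 and 21.7 without. Probe sets whose names end in _x_at or _s_at can also read related transcripts, so that their values for Mcl1, Bmf and Bid are less certain.

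**Figure D2:**
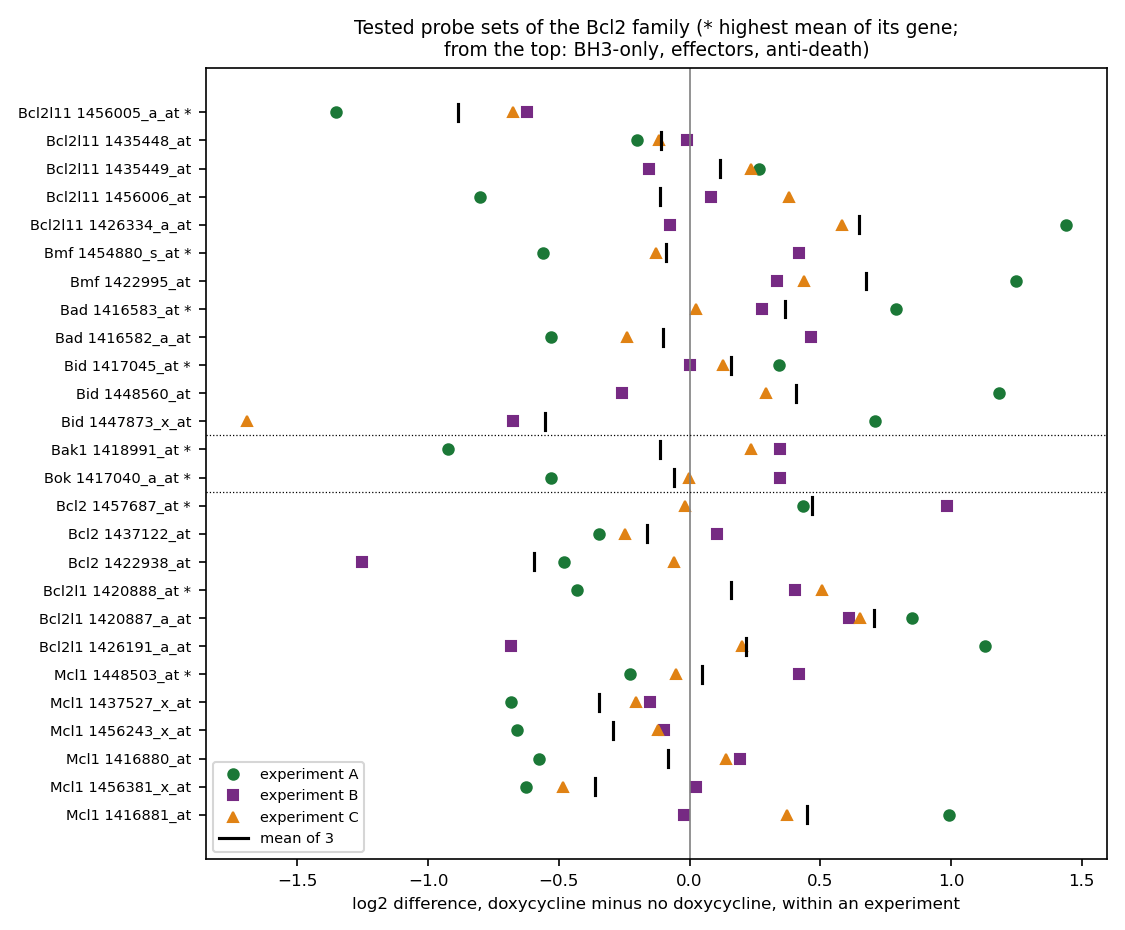
Log2 differences, doxycycline minus no doxycycline within an experiment, of the 26 tested probe sets, with the mean of the 3 experiments as a black line and the roles parted by dotted lines (BH3-only at the top, then effectors, then anti-death). Only 1456005_a_at of Bcl2l11 has all 3 experiments below -0.6, and 1420887_a_at of Bcl2l1 has all 3 near its mean of 0.70.

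The experiments themselves, which the choice of the genes did not use, differed in the signal of cell type markers. The summed signal of 7 blood markers, embryonic globins among them, was 26293 with and 36717 without doxycycline in B, 1623 and 1659 in C, and 2978 and 508.1 in A. The 5 neural markers went the other way, at 123.1 and 276.0 in B, 2056 and 3065.5 in C, and 919 and 1762 in A. Pluripotency markers were at 1178 and 1559 in B, 9302.5 and 9351 in C, and 4083 and 5921 in A, and endoderm markers at 12145 and 12676 in B, 576 and 528.5 in C, and 7652 and 6562 in A. Most of the endoderm sum in B and A was Ttr, at 10701 and 11110 in B and 4214 and 3858 in A. Of the other endoderm markers, Afp, Foxa2 and Sox17 were highest in A and Apoa1 in B. Most of the pluripotency sum in A and C was Sox2, at 2687.5 and 4389.5 in A and 6065 and 6163 in C with and without doxycycline. Pou5f1, by contrast, was highest on the uninduced array of A (1015.4). Every marker of the 6 lists was named on the array, and all but Ptprc, the leukocyte gene CD45, passed the filter on low values.

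**Figure D3:**
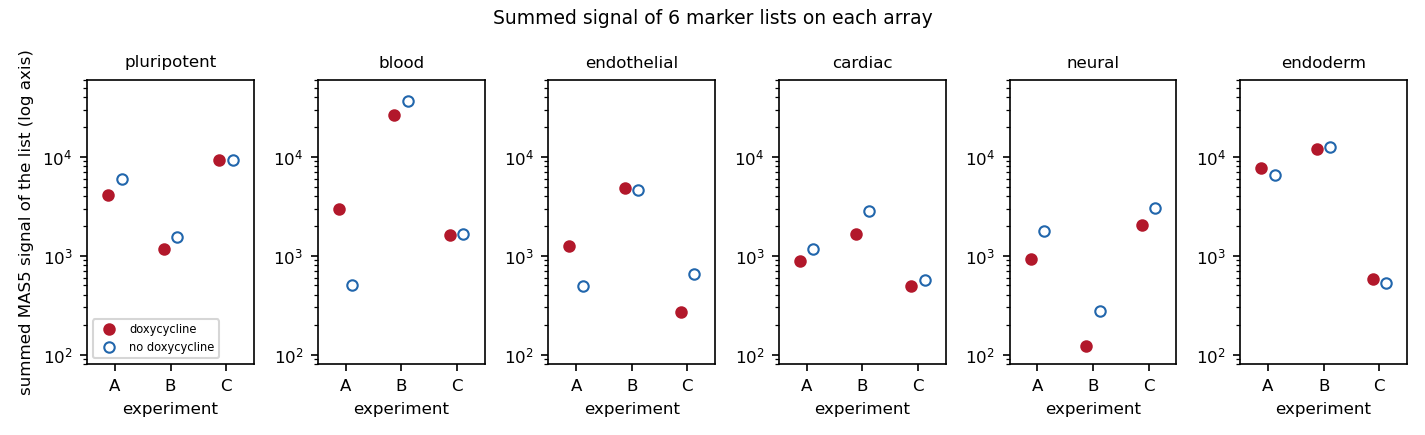
Summed MAS5 signal (log axis) of 6 marker lists on each array, by experiment, with doxycycline (filled) left of no doxycycline (open). Blood, endothelial and cardiac sums are highest in B, and pluripotency and neural sums are highest in C, with and without doxycycline.

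Between the experiments, limma's F test (experiment letter, with doxycycline in the model) called 5 of the 26 member probe sets at an adjusted p under 0.05, against 11.6% of all tested probe sets. With 1 probe set per gene it called 1 of the 9, against 14.0% of all genes, so that by gene the share was near that of the array at large. The 5 were of Bcl2 (2), Bcl2l1, Mcl1 and Bmf. Of the 26, C minus B called 1 as higher (4.33% of all) and 2 as lower (5.26%, or 9.59% in either direction). A minus C called 0 as higher (4.29%) and 2 as lower (2.52%, or 6.82% in either direction), and A minus B called 0 as higher (1.91%) and 0 as lower (2.09%, or 4.00% in either direction). Beyond the experiment itself, the labels do not say what its 2 arrays share. The test takes the 2 arrays as replicates of their experiment, so that it compares these 3 experiments only. The blood, neural and other marker sums moved with the same experiments, and their part in the differences was not tested.

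Bcl2 had its highest signals in C on all 3 tested probe sets. On 1457687_at the C arrays had 586 and 593 with and without doxycycline, where the A arrays had 214.5 and 154 and the B arrays 371 and 178 (F test, adjusted p = 0.032). The A minus C difference was -1.60 on the log2 scale (95% confidence interval -2.32 to -0.88, adjusted p = 0.029), and the C minus B difference was 1.14 (0.42 to 1.86, adjusted p = 0.061). On 1422938_at the signal was 188.1 and 196.8 in C, against 5.4 and 38.8 in B and 48.6 and 75.1 in A, and the C minus B difference of 2.50 (1.41 to 3.59) passed the test (adjusted p = 0.015). The F test of the third, 1437122_at, did not pass (adjusted p = 0.142).

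Bcl2l1 differed between the experiments on 1420887_a_at, highest in C and lowest in A. The A minus C difference was -1.70 (-2.31 to -1.09, adjusted p = 0.015) and the C minus B difference 0.99 (0.38 to 1.60, adjusted p = 0.056). Its brightest probe set, 1420888_at, was not called (F test, adjusted p = 0.220).

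Mcl1 and Bmf had probe sets that were lower in C than in B. Mcl1 on 1456381_x_at did so, with signals of 745.5 and 1050.1 with and without doxycycline, against 1874 and 1843 in B, a C minus B difference of -1.05 (-1.57 to -0.54, adjusted p = 0.023). Of the other 5 Mcl1 probe sets, 1416881_at had a C minus B difference of 0.032 and the others -0.63 to -0.25, none called. Bmf on 1454880_s_at was also lower in C than in B, with a difference of -1.05 (-1.64 to -0.45, adjusted p = 0.042), although its F test missed the threshold (adjusted p = 0.065). The other tested Bmf probe set, 1422995_at, was called by the F test (adjusted p = 0.043) with its lowest signals in A, 102.6 and 32.3 with and without doxycycline.

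Bid, Bok, Bad, Bak1 and Bcl2l11 were not called between the experiments. For Bok the C minus B difference was 1.04 (0.35 to 1.73, adjusted p = 0.071) and for Bid 0.85 (0.32 to 1.38, adjusted p = 0.059). Bcl2l11 on 1456005_a_at had an A minus C difference of 0.60 (0.11 to 1.09, adjusted p = 0.118) and a C minus B difference of -0.31 (-0.81 to 0.18, adjusted p = 0.422).

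**Figure D4:**
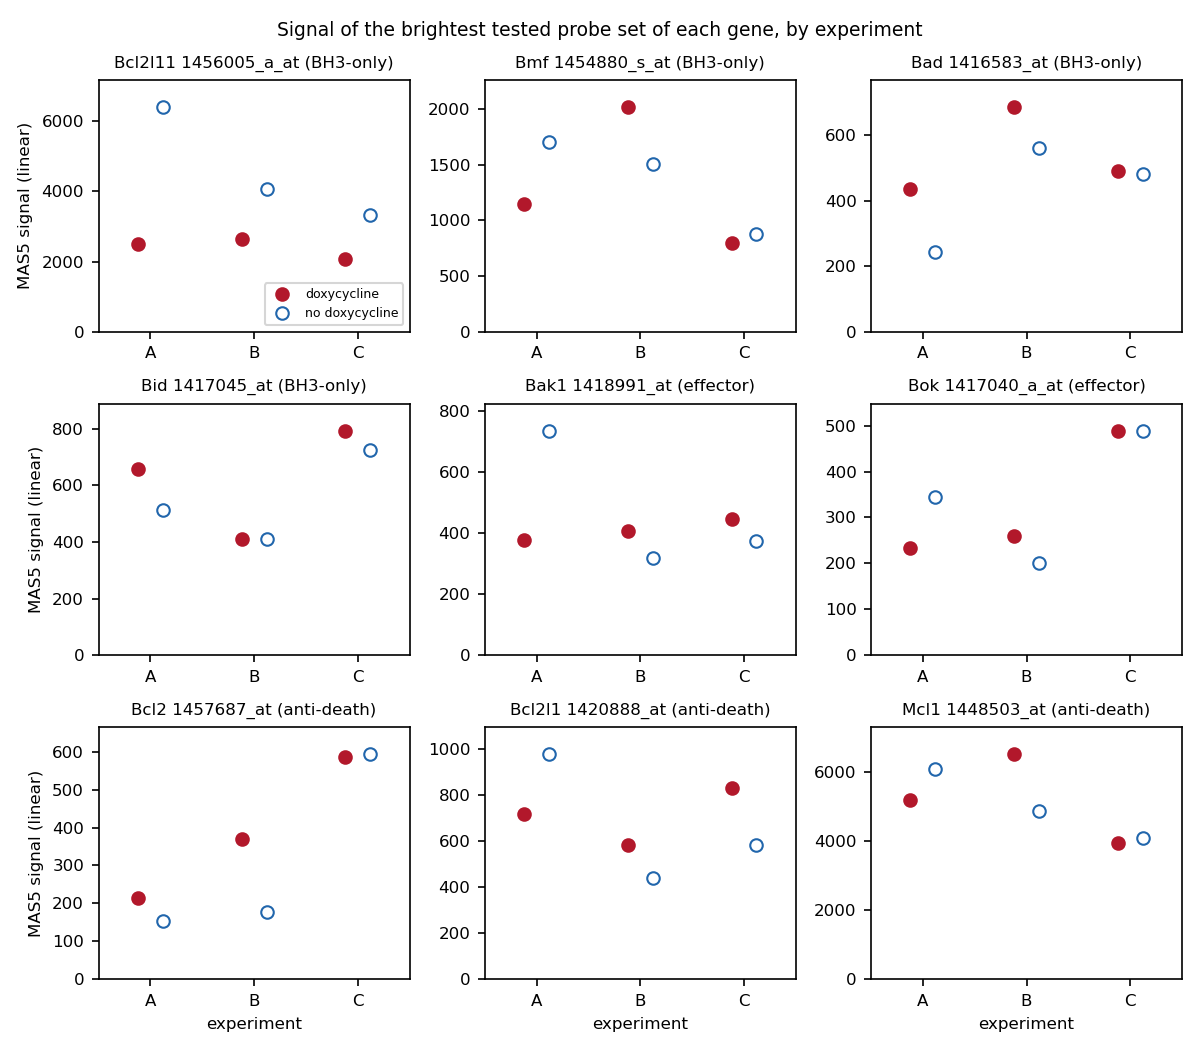
MAS5 signal (linear axes from 0) of the brightest tested probe set of each of the 9 genes, by experiment, with doxycycline (filled) left of no doxycycline (open). Bcl2, Bok and Bid are highest in C, Bmf and Mcl1 lowest in C, and Bcl2l11 is lower with doxycycline in each experiment.

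Single arrays changed these calls. With array A without doxycycline left out, the one of high 3′ to 5′ ratio, the F test called 12 of the 26, against 32.4% of all probe sets, and without the induced array of A 21, against 51.1%. Without the induced or the uninduced array of C it called 0 and 0, against 5.56% and 5.65%, and without those of B 3 and 3, against 6.54% and 5.68%. The F test of Bcl2 on 1457687_at then gave an adjusted p of 0.064 without the induced and 0.250 without the uninduced array of C. The C minus B difference of Bmf on 1454880_s_at was -0.66 without the induced array of B (adjusted p = 0.545). With both arrays of A left out, a choice made after the data were seen, C minus B called 12 of the 26, against 30.3%: higher in C for Bcl2 (2), Bid (2), Bok and Bcl2l1, and lower for Mcl1 (4), Bmf and Bcl2l11.

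Other genes of the pathway gave no call with doxycycline. Of 17 other Bcl2 relatives 13 were named and 10 tested, 4 with a higher and 6 with a lower mean, and a median log2 difference of -0.047. With 1 sign in all 3 experiments were Bik, a BH3-only gene, at 1.07, and Pmaip1, which encodes NOXA, the partner of MCL1, at -0.27. That is 1 higher and 1 lower of the 10, against 1718 higher and 1538 lower of all 12452 genes. Bik was dim, with signals of 104.5, 178.8 and 87.4 with doxycycline in A, B and C, against 80.5, 64.7 and 14.8 without. None of the 10 was called between the experiments (F test, 0%, against 14.0% of all genes).

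Of 20 apoptosome, caspase and inhibitor genes 18 were named and tested, 8 with a higher and 10 with a lower mean, and a median of -0.023. Aifm1, which encodes a mitochondrial flavoprotein, stood at -0.18, Birc2, which encodes cIAP1, at -0.11 and the giant ubiquitin ligase gene Birc6 at 0.085, each with 1 sign in 3 of 3 experiments. That is 1 higher and 2 lower of the 18, against 1718 higher and 1538 lower of all 12452 genes. None of the 18 was called between the experiments.

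Of 19 regulators and partners of BIM 15 were named and 14 tested, 6 with a higher and 8 with a lower mean, and a median of -0.021. Over all 12452 genes the median was 0.016. Foxo3, the FoxO factor best known to switch on Bcl2l11, had signals of 1079, 1150.1 and 662.6 with doxycycline in A, B and C, against 2685, 1733 and 852 without. Its log2 difference was -1.30, -0.58 and -0.35 by experiment, with a mean of -0.75 that limma did not call. Ddit3, the stress factor CHOP, stood at -0.545 and E2f1 at 0.38, also with 1 sign in 3 of 3. Of the 14, 2 were higher and 4 lower in 3 of 3 experiments, not all of them named here. Of all 12452 genes, 1718 were higher and 1538 lower in this way. The other FoxO genes were mixed in sign, Foxo1 at -0.58, 0.30 and -0.21 and Foxo4 at -0.47, 0.24 and -0.36 in A, B and C. The part of FoxO factors in the Bcl2l11 values was not tested.

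Between the experiments 4 of these 14 were called, against 14.0% of all genes. Foxo4 was lower in C than in B, with a log2 difference of -1.87 (-2.42 to -1.31, F test, adjusted p = 0.0071). Jun, an AP-1 subunit that the stress kinase JNK acts on, was lower in C than in B too, at -1.65 (-2.10 to -1.20, F test, adjusted p = 0.0040). Foxo3 was higher in A than in C, by 1.16 (0.56 to 1.76, F test, adjusted p = 0.046). Ddit3, named after its values were seen, was lower in C than in B, at -1.13 (-1.65 to -0.62, F test, adjusted p = 0.036).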

How the data were processed

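The authors deposited 1 MAS5 intensity per probe set and array, credited to MAS5 in the submitters' processing notes; the sources used here name no version. With the top and bottom 2% of values removed, each array averaged 500, which is a common scaling target. Detection calls were not used here, and precision is limited by there being 6 arrays.

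From these values log2(signal + 18.8) was computed, 18.8 being the 20th percentile of all values; differences are on this scale, which understates those of dim probe sets. Of 45037 non-control probe sets, 27022 with a mean above the 40th percentile were tested with limma 3.58.1 in R 4.3.3 (empirical Bayes with an intensity trend, Benjamini-Hochberg over all tested probe sets, each contrast on its own, threshold 0.05, two-sided). Doxycycline was fitted without the experiment letter, and the letter as a replicate block was an alternative. Per the labels, arrays of 1 letter come from 1 experiment. Their deviations around the group means had correlations of 0.45 to 0.67. Between an induced and an uninduced array of different letters they were at most -0.12. Centring on the group means makes the second kind negative on balance where the first is positive, so that this gap is partly built in. On the labels, the letters were taken as pairs in the differences within an experiment and in the block, but not in the main doxycycline fit. The experiments were compared in a model with doxycycline and the letter.

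Gene names came from the platform annotation in GEO, and a RefSeq table of GRCm38.p6 gave the current symbol, by Entrez ID, of 34741 of 34945 probe sets named for 1 gene; 932 were named for several genes and 9160 unnamed. A gene's brightest tested probe set represented it, and the others are given beside it. All member probe sets were named. Pathway lists were given as counts, with up to 3 genes named (the largest difference between experiments past the threshold, or the largest doxycycline difference with 1 sign in 3 of 3 experiments), and the 5 genes with the highest correlation with Bcl2l11. The doxycycline values of Foxo1 and Foxo4 were added to these after they had been seen. The members and lists were chosen with earlier results of these data known. The fits were tested on simulated data first.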

Additional observations from a re-analysis of the deposited data

How the results depend on the processing

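Doxycycline called 0 probe sets in each of the 15 alternatives tried: another offset, no filter, quantile normalization, no intensity trend, the replicate block (0 probe sets, smallest adjusted p 0.930), and leaving out any array or both arrays of an experiment. The F test between experiments called 3138 probe sets, and 1186 with no intensity trend; leaving out 1 array gave 1502 to 13806. The count for C minus B was 2591, and 8179 without both arrays of A, a setting added after the data were seen. For the members' brightest probe sets 5 of the doxycycline differences in these alternatives moved by more than the SD between experiments, 4 of them for Bid (-0.038 to 0.42) and 1 for Bcl2 (1.04 without the uninduced array of C). The C minus B call of Bmf was lost without any 1 array of B or C, and the A minus C call of Bcl2 without either array of C (adjusted p = 0.067 and 0.259); the cause was not tested. Leaving out 1 array leaves 1 residual degree of freedom in the F test, and an experiment with a lone array is taken to vary like the others. Without detection calls, dim probe sets such as 1447873_x_at of Bid may carry little signal.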
